A study of Mus musculus with 7 samples.

Results

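The genes described here were the cyclins and cyclin-dependent kinases (CDKs) of the adult mouse testis, 43 protein-coding genes of 19719 listed, of which 24 were cyclins and 19 were CDKs. They were chosen by symbol (Ccn and a letter with or without a number, or Cdk and a number with or without a letter). The rule itself uses no measured value, but it was chosen with earlier results of these data known. RNA of whole testis had been sequenced in 3 libraries of fl/Y males and 4 libraries of cKO/Y Sox2-Cre males. The males were of the strain C57BL/6 at 8 weeks of age, littermates per the study. The labels name the groups WT and Rlim-KO. The fl/Y controls carried the floxed (fl) *Rlim* allele on their only X chromosome and no deletion, and in cKO/Y Sox2-Cre males the same allele was deleted by the Cre transgene Sox2-Cre, which acts in the early embryo, so that somatic tissues and the germline lacked RLIM, a ubiquitin ligase. The comparison of the genotypes asked how the RNA of the testis differs without *Rlim*. The labels give 2 batches and do not say what defines them. Replicates 1 and 2 of either genotype belonged to batch 2, and fl/Y replicate 3 and replicates 3 and 4 of cKO/Y Sox2-Cre to batch 1.

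A CDK is a protein kinase that is inactive until a cyclin binds it, and many cyclins are made and destroyed once per cell cycle, so that the pair of partners sets which step of the cycle a cell takes. D-type cyclins with CDK4 or CDK6 and E-type cyclins with CDK2 carry cells from G1 into S phase, and A- and B-type cyclins with CDK2 and CDK1 carry them through S phase and into division. Other members act on RNA polymerase II, on Mediator or on splicing, namely cyclins C, H, K, L and T with CDK7, CDK8, CDK9, CDK11, CDK12, CDK13 or CDK19. Of these, cyclin H and CDK7 are also parts of the kinase that activates CDKs. In the testis spermatogonia divide by mitosis and spermatocytes by meiosis, for which cyclin A1 is required in males, and spermatids no longer divide. RNA of the whole organ is a sum over these cells and over the somatic cells, in which fewer cells of a type and less RNA per cell cannot be told apart.

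Values are in CPM, read counts scaled by the size of the library, as deposited. Library depth ran from 2822168 to 8633399 reads over all genes of the table, so that 3 reads, the limit that a count of 0 allows, corresponded to 0.301 to 0.945 CPM (counting error only). All 43 genes passed a filter on low values (over 1 CPM, at minimum in 3 of 7 libraries), and every one had reads in every library, with the lowest counts for *Ccnj* and *Ccno* (4 reads each in their lowest library) and *Cdk15* (5 reads). *Rlim*, the deleted gene, was at 99.5, 70.7 and 61.5 CPM in the fl/Y libraries and at 32.6, 35.7, 21.7 and 20.7 CPM in the cKO/Y Sox2-Cre libraries, with no overlap (log2 difference -1.38, standard error 0.16, adjusted p = 0.0087 by limma). Its call was lost without fl/Y replicate 1 (adjusted p = 0.154 by limma, log2 difference -1.28) or replicate 3 (0.634, -1.29) and without the batch in the fit (0.921, -1.475). Over 23 alternatives of the processing its log2 difference stayed between -1.52 and -1.28. The table gives 1 value per gene, so reads from undeleted exons cannot be separated. Mitochondrial genes held 5.88% to 21.4% of the reads. One library stood apart, cKO/Y Sox2-Cre replicate 1, in which CT010467.1 took 19.3% of the reads, while the gene with the most reads was mt-Rnr2 in the other 6. The libraries also differed in how their levels moved with the GC content of genes, which is given with the batch comparison.

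To show what lies upstream of members that the results turn on, 200 bases before the start site of 4 genes are printed from RefSeq (GRCm38.p6), each on the strand of its gene: *Ccnb2* as the cyclin with the highest level per kilobase, *Cdk16* as the CDK with the highest, *Cdk1* as the CDK that B-type cyclins bind, and *Ccnb3* as the B-type cyclin with the lowest p-value between the genotypes. The stretches are chr9:70421555-70421754 (minus strand) for *Ccnb2*, chrX:20687754-20687953 (plus strand) for *Cdk16*, chr10:69352913-69353112 (minus strand) for *Cdk1* and chrX:7041620-7041819 (minus strand) for *Ccnb3*. Capitals mark matches, on either strand, to the CCAAT box (CCAAT), the cell cycle homology element (CHR, TTTGAA or TTCGAA), an E2F site (TTTCCCGC, TTTCGCGC, TTTGCCGC or TTTGGCGC) and a MYB site (AACNGNC). These motifs are known from promoters of genes that are switched on with cell division.
*Ccnb2*: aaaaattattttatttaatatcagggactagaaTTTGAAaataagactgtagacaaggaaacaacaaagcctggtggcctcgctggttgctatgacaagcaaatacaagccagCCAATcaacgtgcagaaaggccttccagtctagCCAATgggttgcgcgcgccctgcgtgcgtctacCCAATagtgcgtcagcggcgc
*Cdk16*: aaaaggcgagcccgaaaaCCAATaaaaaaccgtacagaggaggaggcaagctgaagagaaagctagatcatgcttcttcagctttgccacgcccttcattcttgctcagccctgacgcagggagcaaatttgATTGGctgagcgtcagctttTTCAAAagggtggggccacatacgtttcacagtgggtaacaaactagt
*Cdk1*: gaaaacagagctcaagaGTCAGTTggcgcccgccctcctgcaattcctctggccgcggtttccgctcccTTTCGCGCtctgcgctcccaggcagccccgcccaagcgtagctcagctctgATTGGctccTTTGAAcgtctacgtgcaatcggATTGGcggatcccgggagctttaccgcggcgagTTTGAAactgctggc
*Ccnb3*: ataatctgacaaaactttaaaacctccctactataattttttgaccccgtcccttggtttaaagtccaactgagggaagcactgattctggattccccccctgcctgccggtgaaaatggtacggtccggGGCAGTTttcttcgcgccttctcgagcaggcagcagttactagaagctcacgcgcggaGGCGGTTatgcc

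The *Ccnb2* stretch held 3 CCAAT boxes, which began 87, 54 and 21 bases before the start, and 1 CHR match 167 bases before it. The *Cdk1* stretch held CCAAT boxes 80 and 48 bases, CHR matches 71 and 15 bases, an E2F match 131 bases and a MYB match 183 bases before the start. The *Cdk16* stretch held CCAAT boxes 182 and 68 bases and a CHR match 48 bases before the start. The *Ccnb3* stretch held MYB matches 70 and 12 bases before the start and no match to the other motifs. Of the 43 genes, 34 had a promoter in the RefSeq table (250 bases before to 50 after the start), and a CCAAT box was found in 17 of them (50%), against 41.1% of 27025 genes (a gene counts if any of its promoters holds the match). CHR matches were in 5 of 34 (14.7%, against 21.7% of all genes), E2F matches in 2 (*Cdk1* and *Cdk2*, 5.88% against 2.6%) and MYB matches in 11 (32.4% against 36%). The cAMP response element (CRE, TGACGTCA) was in 1 promoter (*Ccnl1*, against 2.03% of all genes) and a TATA box (TATAAA) in 1 (*Cdk6*, 2.94% against 15.7%). A match of letters is a description of the window and no measurement of binding.

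The testis RNA held a small group of abundant cyclins. Levels of different genes were compared as CPM per kilobase of exon, as mean ± SD over the 3 fl/Y libraries. The order of the cyclins began with *Ccnb2* at 75.3 ± 6.77, *Ccnk* at 60.7 ± 25.3, *Ccni* at 56.7 ± 3.82 and *Ccna1* at 51.4 ± 1.93 CPM per kilobase. Cyclin B2 activates CDK1 at division, cyclin K is the partner of CDK12 and CDK13, cyclin A1 is the germline form of cyclin A, and cyclin I is an atypical cyclin. *Ccnk* was at 43.9, 48.4 and 89.9 CPM per kilobase in the fl/Y libraries. This range overlapped those of *Ccnb2*, *Ccni* and *Ccna1*, so that its place among them was not resolved. *Ccnb2* lay above *Ccni*, and *Ccni* above *Ccna1*, without overlap in fl/Y. A gap followed, with *Ccne2* at 14.8 ± 5.77, *Ccny* at 12.2 ± 0.80 and *Ccnl2* at 10.8 ± 0.54 CPM per kilobase, and the lowest cyclins were *Ccnd2* (0.822 ± 0.342) and *Ccnj* (0.375 ± 0.169).

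Among the CDKs, *Cdk16*, a kinase of postmitotic cells that is activated by cyclin Y and needed for sperm formation, was highest at 17.9 ± 0.99 CPM per kilobase in fl/Y and did not overlap with the next. *Cdk13* followed at 14.1 ± 1.12, *Cdk11b* at 13.4 ± 2.02, *Cdk19* at 10.9 ± 3.70 and *Cdk12* at 9.66 ± 0.84, all of them CDKs of transcription and RNA processing. Of the kinases of the cell cycle, *Cdk2* stood at 7.09 ± 0.90, *Cdk1* at 6.29 ± 1.49, *Cdk4* at 5.25 ± 0.40 and *Cdk6* at 1.17 ± 0.12 CPM per kilobase. The lowest CDK was *Cdk14* at 0.756 ± 0.046. Over both classes, 33 of 41 pairs of neighbours in the order overlapped in their fl/Y ranges. With the length of the longest transcript in place of all exon bases, 10 of the 12 genes in the first 6 places of each class remained there, and *Ccnb1* and *Cdk17* replaced *Ccny* and *Cdk19*.

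**Figure D1:**
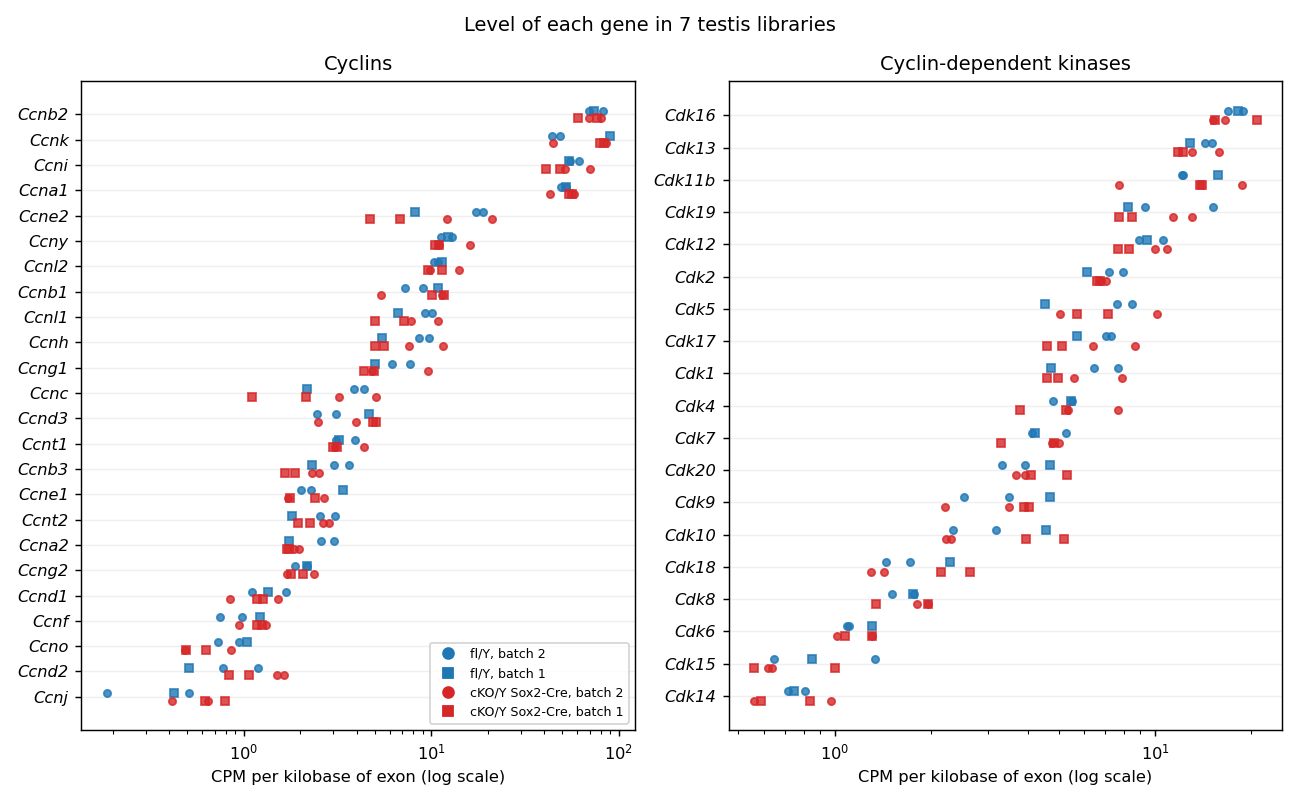
Level of each cyclin (left) and CDK (right) in every testis library, as CPM per kilobase of exon on a log scale, with genes ordered by the fl/Y mean, blue for fl/Y, red for cKO/Y Sox2-Cre, circles for batch 2 and squares for batch 1. Ccnb2, Ccnk, Ccni and Ccna1 stand apart from the other cyclins in all 7 libraries, and red and blue points of a gene mostly lie over each other.

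Within families, one paralog usually held most of the level. *Ccna1* made up 94.98%, 94.6% and 96.8% of the summed A-type level per kilobase in the fl/Y libraries and 95.6%, 96.9%, 97.1% and 96.9% in the cKO/Y Sox2-Cre libraries, the rest being *Ccna2*, the A-type cyclin of dividing somatic and germ cells. *Ccnb2* made up 86.1% ± 1.99 (SD, n = 3) of the B-type level in fl/Y and 86.0% ± 2.63 (SD, n = 4) in cKO/Y Sox2-Cre. *Ccnb1* held 10.46% and 11.47%, and *Ccnb3*, a B-type cyclin of germ cells, held 3.41% ± 0.64 and 2.51% ± 0.51. The value of *Ccnb1* is uncertain, since 26.7% of its 35-base words are shared, most of them with its pseudogenes.

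*Ccnd3*, the D-type cyclin with the largest share in every library, held 57.6%, 50.2% and 71.5% of the D-type level in fl/Y and 55.6%, 51.5%, 67.7% and 71.7% in cKO/Y Sox2-Cre, and its 3 highest shares were those of the 3 libraries of batch 1. *Ccnd2* held 21.9%, 15.7% and 7.79% in fl/Y and 23.1%, 31.0%, 14.8% and 11.8% in cKO/Y Sox2-Cre, with overlap between the genotypes. *Ccne2* held 83.2% ± 10.8 of the E-type level in fl/Y and 80.2% ± 9.18 in cKO/Y Sox2-Cre, and its shares in batch 1 (70.8% to 73.7%) were below all of those in batch 2 (81.9% to 92.4%). Of the kinase pairs, *Cdk4* held 81.8% ± 1.47 of *Cdk4* with *Cdk6* in fl/Y, *Cdk19* held 85.8% ± 4.48 of *Cdk8* with *Cdk19*, and *Cdk13* held 59.4% ± 2.00 of *Cdk12* with *Cdk13*. The cKO/Y Sox2-Cre means of these 3 shares were 81.5%, 84.8% and 58.9%, each within 1 SD of the fl/Y mean. Shares take all exon bases as the length, and the SD does not cover this choice. Per kilobase of the longest transcript, the fl/Y mean of *Cdk12* (19.16 CPM) was above that of *Cdk13* (15.13 CPM). The larger share of *Cdk13* thus depended on the length used. *Cdk19* (10.98 CPM) stayed above *Cdk8* (4.233 CPM), and *Cdk4* (8.307 CPM) above *Cdk6* (1.42 CPM). Of the cyclins, *Ccnb2* (75.33 CPM) stayed above *Ccnb1* (15.36 CPM), and *Ccnd3* (7.757 CPM) above *Ccnd1* (1.733 CPM). *Ccnt1* (4.217 CPM) lay little above *Ccnt2* (4.001 CPM), so the cyclin shares also changed with the length. *Ccnl2* held 55.8% ± 6.46 of the L-type level and *Ccnt1* held 58.3% ± 5.04 of the T-type level in fl/Y, against 59.9% ± 4.70 and 58.4% ± 4.84 in cKO/Y Sox2-Cre.

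**Figure D2:**
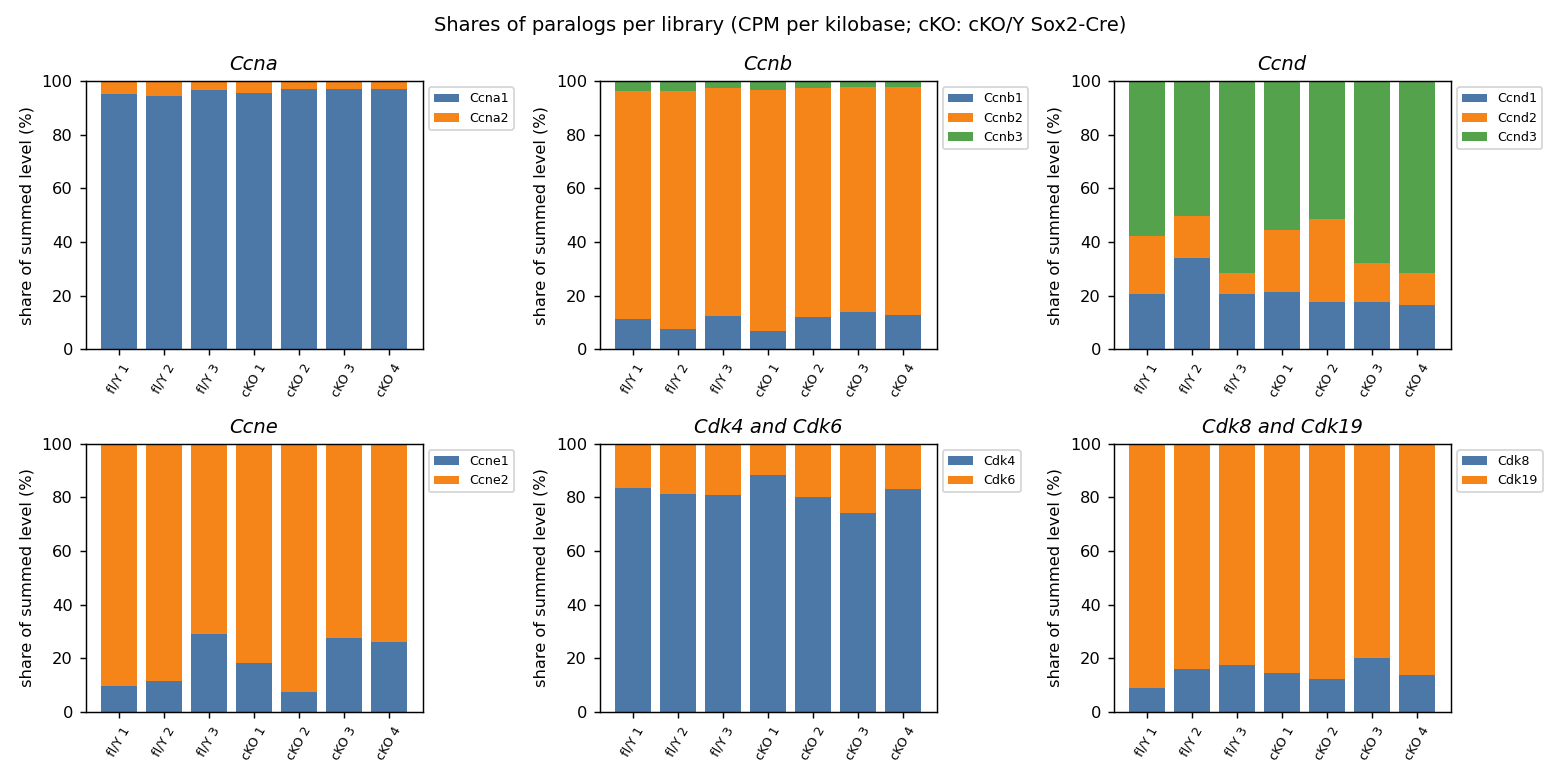
Share of each paralog (stacked colours, in % of the summed CPM per kilobase) in each of the 3 fl/Y and 4 cKO/Y Sox2-Cre libraries, for 4 cyclin families and 2 pairs of kinases. Ccna1 stays between 94.6% and 97.1%, while Ccnd3 varies from 50.2% to 71.7%.

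Between the genotypes, no cyclin or CDK passed an adjusted p of 0.05. The limma fit with the batch as a covariate, adjusted by Benjamini-Hochberg over 19400 genes, called 0 of the 43 against 1 gene in all (0.00515%), which was *Rlim*, and edgeR and DESeq2 on the recovered reads also called 0 of the 43. No member had genotypes that did not overlap over all 7 libraries, against 1.34% of all genes higher and 1.59% lower in cKO/Y Sox2-Cre. At an unadjusted p under 0.05 there was 1 member, *Ccnd2*, against 501 of all genes (2.58%, with 1.22% higher and 1.37% lower in cKO/Y Sox2-Cre). The median log2 difference (cKO/Y Sox2-Cre minus fl/Y, on log2(CPM + 0.5), which understates differences of genes with low values) was -0.04 over the 43 genes (0.0049 without cKO/Y Sox2-Cre replicate 1) and -0.01 over all genes. Of the members 17 were above 0 and 26 below, 26 lay within 0.1 of 0 and 7 beyond 0.3. The summed level was 1079 ± 30.2 CPM in fl/Y and 1084 ± 93.4 CPM in the cKO/Y Sox2-Cre libraries for the cyclins, and 776 ± 26.7 and 746 ± 52.8 CPM for the CDKs (SD, n = 3 and n = 4).

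The precision of these values limits what a missing call can say. The 95% intervals of the log2 differences reached from 0.29 to 0.75 to either side, with a median of 0.43. For 39 of 43 members the whole interval lay within 1 log2 unit of 0, and for 21 within 0.5 units. The difference had the same sign within batch 2 and within batch 1 for 21 of 43 members, against 48.4% of all genes. An interaction of genotype with batch was called for 0 members at an adjusted p of 0.05 (2 of all genes, 0.0103%) and for 0 members at an unadjusted p under 0.05 (2.08% of all genes).

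**Figure D3:**
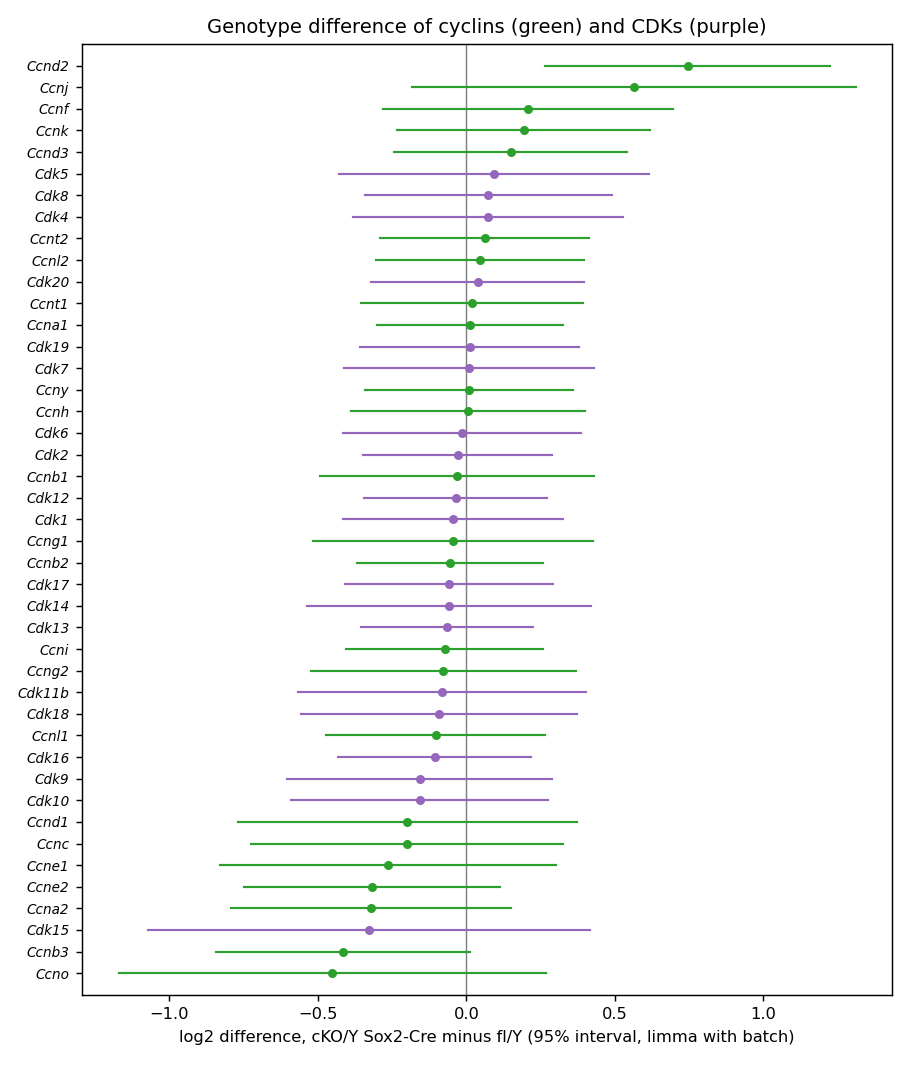
Log2 difference between cKO/Y Sox2-Cre and fl/Y testes for each cyclin (green) and CDK (purple), ordered by value, with points for the limma estimate and bars for its 95% interval. Only the bar of Ccnd2 (0.74) does not cross 0, and its adjusted p was 0.9999.

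Among the G1 and G1/S cyclins the differences were the most spread, with a median of -0.20 over 5 genes. *Ccnd2* (ENSMUSG00000000184, chromosome 6 from 127125162 to 127152193, GRCm38), a D-type cyclin known from spermatogonia and from somatic cells of the gonad, was at 11.2, 7.27 and 4.77 CPM in the fl/Y libraries and at 15.5, 14.2, 10.1 and 7.83 CPM in the cKO/Y Sox2-Cre libraries. The genotypes overlapped over all libraries but not within a batch, where every cKO/Y Sox2-Cre library was above every fl/Y library. This was true of 1 member in this direction, against 3.44% of all genes. The log2 difference was 0.74 (95% interval 0.26 to 1.23, adjusted p = 0.9999 by limma), with values of 0.69 in batch 2 and 0.83 in batch 1. Its unadjusted p from limma was 0.0048, and it was 0.072 in a fit that left out the batch and 0.052 in batch 2 alone. Of its 35-base words 6.8% occur in antisense genes that overlap it, whose reads cannot be told apart here, because the strand setting of the counting was not given in the sources used here.

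The other G1 cyclins gave no call. *Ccnd1*, the D-type cyclin of many dividing cells, was at 5.20, 7.88 and 6.37 CPM in fl/Y and at 7.13, 3.99, 5.98 and 5.52 CPM in the cKO/Y Sox2-Cre libraries (log2 difference -0.20). *Ccnd3*, the D-type cyclin with the highest level here, was at 27.3, 21.6 and 40.8 CPM against 34.7, 21.9, 43.1 and 44.6 CPM (0.15). In both genotypes the batch 1 libraries of *Ccnd3* were the highest. *Ccne1* was at 5.39, 6.06 and 9.02 CPM in fl/Y and at 7.13, 4.58, 4.72 and 6.42 CPM in the cKO/Y Sox2-Cre libraries (-0.26). *Ccne2*, which with *Ccne1* activates CDK2 and has a known role in male meiosis, was at 65.8, 60.8 and 28.6 CPM against 42.5, 73.4, 16.4 and 23.7 CPM (-0.32, adjusted p = 0.9999 by limma). Its libraries were ordered by batch, with all 4 of batch 2 above all 3 of batch 1.

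**Figure D4:**
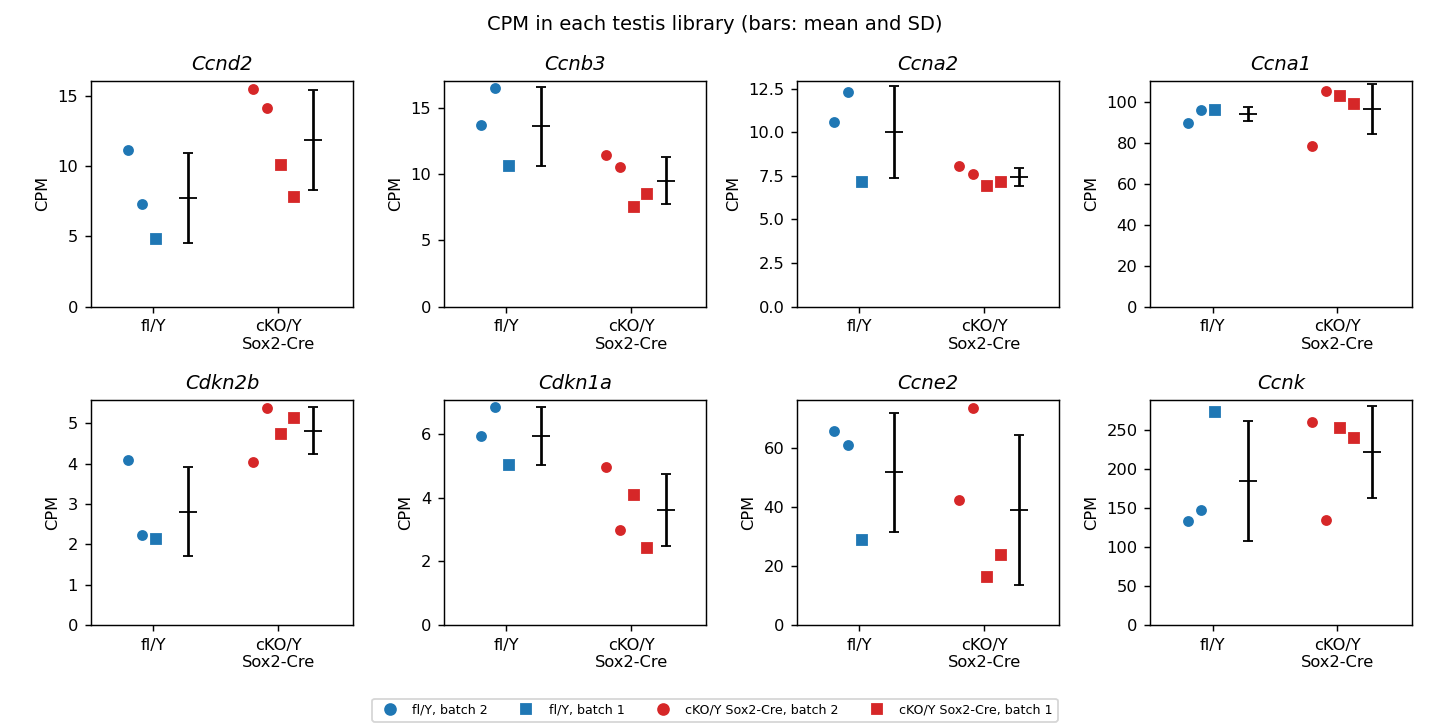
CPM in each library, blue for fl/Y, red for cKO/Y Sox2-Cre, circles for batch 2 and squares for batch 1, with mean and SD as black bars, for 6 cyclins and the inhibitors Cdkn2b and Cdkn1a. Within each batch Ccnd2 is higher and Ccnb3 and Ccna2 are lower in every cKO/Y Sox2-Cre library, and Ccna1 overlaps.

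The A- and B-type cyclins of division and cyclin F had a median difference of -0.04 over 6 genes. *Ccna1* (chromosome 3 from 55045469 to 55055501), whose protein is found in meiotic spermatocytes, was at 90.2, 96.3 and 96.3 CPM in fl/Y and at 78.8, 106, 103 and 99.4 CPM in the cKO/Y Sox2-Cre libraries. The fl/Y values lay inside the range of the cKO/Y Sox2-Cre values, and the log2 difference was 0.01 (95% interval -0.30 to 0.32), a direction that changed when single libraries were left out. *Ccnb2* (chromosome 9 from 70407692 to 70421547), with its 3 CCAAT boxes, was at 107, 127 and 112 CPM against 107, 123, 93.2 and 118 CPM, a difference of -0.06 (interval -0.37 to 0.26). *Ccnb1*, the main partner of CDK1 in mitosis, was at 38.3, 30.5 and 45.9 CPM against 22.6, 48.0, 42.5 and 49.2 CPM (-0.03), with the lowest value in cKO/Y Sox2-Cre replicate 1.

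*Ccnb3* and *Ccna2* were the members that were lower in every cKO/Y Sox2-Cre library within each batch, 2 members against 4.22% of all genes. *Ccnb3* (chromosome X from 6979652 to 7041619), which acts with CDK1 in meiosis, was at 13.8, 16.6 and 10.6 CPM in fl/Y and at 11.48, 10.56, 7.56 and 8.53 CPM in the cKO/Y Sox2-Cre libraries. Its log2 difference was -0.42 (95% interval -0.84 to 0.01, adjusted p = 0.9999 by limma), with -0.44 within batch 2 and -0.38 within batch 1. *Ccna2* was at 10.6, 12.3 and 7.16 CPM against 8.06, 7.57, 6.93 and 7.13 CPM, a difference of -0.32 (adjusted p = 0.9999 by limma). The value differed by batch, with -0.52 within batch 2 and -0.03 within batch 1. Of its words 11.8% are shared, nearly all with *Exosc9*, which overlaps it on the other strand. *Ccnf*, the F-box cyclin, was at 7.62, 5.86 and 9.55 CPM against 10.2, 7.38, 9.76 and 9.13 CPM (0.21).

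The CDKs that these cyclins bind lay close to 0. *Cdk1* was at 37.9, 31.9 and 23.3 CPM in fl/Y and at 27.6, 38.9, 22.7 and 24.6 CPM in the cKO/Y Sox2-Cre libraries, a log2 difference of -0.04 (95% interval -0.42 to 0.33). *Cdk2*, which is required for meiosis, was at 49.3, 44.8 and 38.2 CPM against 42.2, 43.9, 40.9 and 42.0 CPM (-0.03, interval -0.35 to 0.29). The 4 cKO/Y Sox2-Cre values of *Cdk2* lay inside the fl/Y range. *Cdk4* was at 17.8, 15.5 and 17.8 CPM against 24.8, 17.3, 12.3 and 17.2 CPM (0.07), and 18.6% of its words are shared, most of them with *Tspan31*, which overlaps it on the other strand. *Cdk6*, the steadiest member over the 7 libraries, was at 15.2, 15.5 and 18.3 CPM against 14.3, 18.3, 18.3 and 15.1 CPM (-0.01), with a ratio of the highest to the lowest library of 1.29. The smallest p of any CDK was 0.364 (*Cdk15*, the lowest expressed CDK by CPM).

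The cyclins of transcription and RNA processing had a median difference of 0.02 over 7 genes and the CDKs of this kind -0.04 over 7. *Ccnk* (chromosome 12 from 108179579 to 108203359) took values of 2 sizes, 134, 147 and 273 CPM in fl/Y and 261, 135, 253 and 241 CPM in the cKO/Y Sox2-Cre libraries. The lower size was found in 3 of the 4 batch 2 libraries and the upper in cKO/Y Sox2-Cre replicate 1 and the 3 batch 1 libraries. Its log2 difference of 0.19 (adjusted p = 0.9999 by limma) was 0.42 within batch 2 and -0.15 within batch 1. Its kinase partners did not share this split, with *Cdk12* at 105, 124 and 111 CPM in fl/Y and 128, 117, 89.8 and 97.4 CPM in the cKO/Y Sox2-Cre libraries (-0.04). *Cdk13* was at 193, 203 and 173 CPM against 175, 212, 164 and 158 CPM (-0.06). The T-type cyclins, which bind CDK9 in the elongation factor P-TEFb, gave 0.02 (*Ccnt1*) and 0.06 (*Ccnt2*), and *Cdk9* gave -0.16. *Ccnh* and *Cdk7*, the parts of the CDK-activating kinase, gave 0.005 and 0.01. *Cdk11b*, a splicing kinase, was at 45.5, 46.0 and 58.9 CPM against 70.1, 28.9, 52.6 and 51.9 CPM (-0.08), with the highest and the lowest value both in cKO/Y Sox2-Cre libraries of batch 2.

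The remaining members have roles outside these groups, and none of them gave a call. *Ccni* was at 202, 181 and 179 CPM in fl/Y and 171, 233, 135 and 161 CPM in the cKO/Y Sox2-Cre libraries (-0.07). *Cdk16* (chromosome X from 20687954 to 20699880) was at 73.8, 82.4 and 79.3 CPM against 72.3, 66.6, 91.3 and 67.2 CPM, a log2 difference of -0.11 (95% interval -0.43 to 0.22). Its activator *Ccny* was at 68.8, 78.3 and 75.1 CPM against 66.7, 98.5, 63.9 and 67.3 CPM (0.01), and both genes overlapped between the genotypes. *Ccnj*, with few reads, was at 2.23, 0.808 and 1.86 CPM against 2.79, 1.79, 3.46 and 2.71 CPM (0.56, 95% interval -0.18 to 1.31, adjusted p = 0.9999 by limma). *Ccno*, known from multiciliated cells, was at 1.86, 2.42 and 2.65 CPM against 1.24, 2.19, 1.26 and 1.61 CPM, the lowest fitted difference of the 43 at -0.45 (95% interval -1.17 to 0.27). The 6 other cyclins had a median of -0.06 and the 8 other CDKs one of -0.08.

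The partners of the cyclins and CDKs in the pathway gave no adjusted call either. Of 8 CDK inhibitors 7 were listed and tested, with a median log2 difference of 0.23 and 1 gene in each direction at an unadjusted p under 0.05, against 1.22% of all genes higher and 1.37% lower. *Cdkn2b*, the inhibitor p15 of CDK4 and CDK6, was at 4.09, 2.22 and 2.12 CPM in fl/Y and at 4.03, 5.38, 4.72 and 5.12 CPM in the cKO/Y Sox2-Cre libraries (0.75, adjusted p = 0.9999 by limma). *Cdkn1a*, the inhibitor p21, was at 5.95, 6.87 and 5.04 CPM against 4.96, 2.99, 4.09 and 2.41 CPM (-0.63, adjusted p = 0.9999 by limma). The genotypes overlapped for *Cdkn2b* through cKO/Y Sox2-Cre replicate 1, while every cKO/Y Sox2-Cre library of *Cdkn1a* was below every fl/Y library, as were 1.59% of all genes. No gene reached an unadjusted p under 0.05 among 15 kinases, phosphatases and subunits that act on CDKs (median 0.08), 13 pocket proteins and E2F factors (-0.06), 20 genes of cyclin destruction by the ligases APC/C and SCF (-0.01) and 16 cyclin-like or CDK-like genes outside the naming rule (0.001).

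The cell types in which these genes are known to act were checked by their markers, and no listed marker of germ, Sertoli, Leydig or peritubular cells was at 0 in all libraries. Markers of spermatogonia summed to 66.36 to 77.95 CPM in fl/Y and 55.01 to 97.08 CPM in the cKO/Y Sox2-Cre libraries, with 0 of 6 tested at an unadjusted p under 0.05. Markers of spermatocytes summed to 739 to 1118 CPM in fl/Y and 531 to 1175 CPM in the cKO/Y Sox2-Cre libraries, with 0 of 7, and those of round and elongating spermatids gave 0 of 6 each. Of the somatic markers, *Rhox5* of Sertoli cells (1 of 8, log2 difference -0.55) and *Star* of Leydig cells (1 of 5, -0.33) were lower at that p. *Col1a1* and *Col3a1* among the markers of peritubular cells (2 of 5, 0.83 and 0.49) and *Pecam1* of endothelium (1 of 4, 0.72) were higher. None of these genes passed the adjusted p. The summed ranges of the somatic markers overlapped between the genotypes (171 to 239 CPM in fl/Y and 184 to 340 CPM in the cKO/Y Sox2-Cre libraries for peritubular cells), and their part in the values of *Ccnd2* and *Cdkn2b* was not tested. Markers of macrophages gave 0 of 5, red blood cells 0 of 2 tested and epididymis 0 of 2 tested.

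More members were called between the batches than between the genotypes. Of the 43 genes, 5 passed an adjusted p of 0.05 for batch in the same fit (3 higher and 2 lower in batch 2), against 7.06% of all genes (3.46% higher and 3.6% lower in batch 2). The count depended on single libraries, with 2 members without fl/Y replicate 1, 1 without fl/Y replicate 3 and 13, 1 and 2 without cKO/Y Sox2-Cre replicates 1, 3 and 4. The share of all genes called in these fits was not counted, so these counts are not read as particular to the members. Other measures moved with batch too. Mitochondrial genes held 12.7% to 21.4% of the reads in batch 2 and 5.88% to 9.31% in batch 1. The 6 markers of elongating spermatids had a median batch difference of -0.61 (log2, batch 2 minus batch 1). Of these, *Prm1*, *Prm2*, *Tnp2* and *Odf1* were lower in every batch 2 library than in batch 1, while *Tnp1* and *Smcp* overlapped. Of the 7 spermatocyte markers, whose median was 0.19, *Sycp1*, *Sycp3* and *Hormad1* were higher in every batch 2 library and the rest overlapped. The Leydig marker *Insl3* was at 1.12 to 6.26 CPM in batch 2 and 51.5 to 119 CPM in batch 1. The other Leydig markers overlapped. The part of these measures in the members' batch differences was not tested. *Ccne2* was higher in batch 2 by 1.34 on the log2 scale (adjusted p = 0.0028 by limma), and its values stand with the G1 cyclins. *Ccnc*, the cyclin of the Mediator kinases, was at 22.5, 19.8, 16.4 and 26.1 CPM in batch 2 and at 11.1, 5.67 and 11.04 CPM in batch 1 (1.16, adjusted p = 0.0152 by limma), with the largest ratio between 2 libraries of any member, 4.61. *Ccnh* was at 26.6, 30.1, 23.6 and 35.7 CPM in batch 2 and at 17.0, 17.3 and 15.7 CPM in batch 1 (0.77, adjusted p = 0.026 by limma). *Cdk10*, a kinase with known links to cilia, was lower in batch 2, at 10.04, 13.7, 9.93 and 9.57 CPM against 19.6, 17.0 and 22.4 CPM (-0.87, adjusted p = 0.023 by limma), and *Ccnd3* was lower by 0.69 (adjusted p = 0.0373 by limma). Of the 35-base words of *Ccne2* 15.4% are shared with *Ints8*, which overlaps it on the other strand. For *Cdk10* 20.3% are shared, most of them with *Gm6473* and *Spata2l*. Batches that did not overlap were seen for 11 members higher in batch 2 (11.6% of all genes) and 5 lower (12.1%).

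These batch differences moved with base composition. Across the 43 members the batch difference had a Spearman correlation of -0.65 with the GC content of the longest transcript, and across 19363 genes one of -0.56, over the same 7 libraries. The members called higher in batch 2 were among those of the lowest GC content (*Ccnc* 35.5%, *Ccne2* 36.3%, *Ccnh* 38.7%), and those called lower were of high GC content (*Cdk10* 55.7%, *Ccnd3* 56.7%), where the median gene was at 48.5%. For single libraries, the deviation of each gene from its mean over the 7 libraries was correlated with GC content. This Spearman correlation across genes ran from -0.60 (cKO/Y Sox2-Cre replicate 2) to 0.52 (cKO/Y Sox2-Cre replicate 3). After a smooth on GC content was removed from each library, 1 member remained past the adjusted p for batch (*Ccne2*, 0.73, adjusted p = 0.0066 by limma), against 3.41% of all genes. The genotype difference of the members had a correlation of 0.10 with GC content, and that of *Ccnd2* was 0.76 after the removal.

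**Figure D5:**
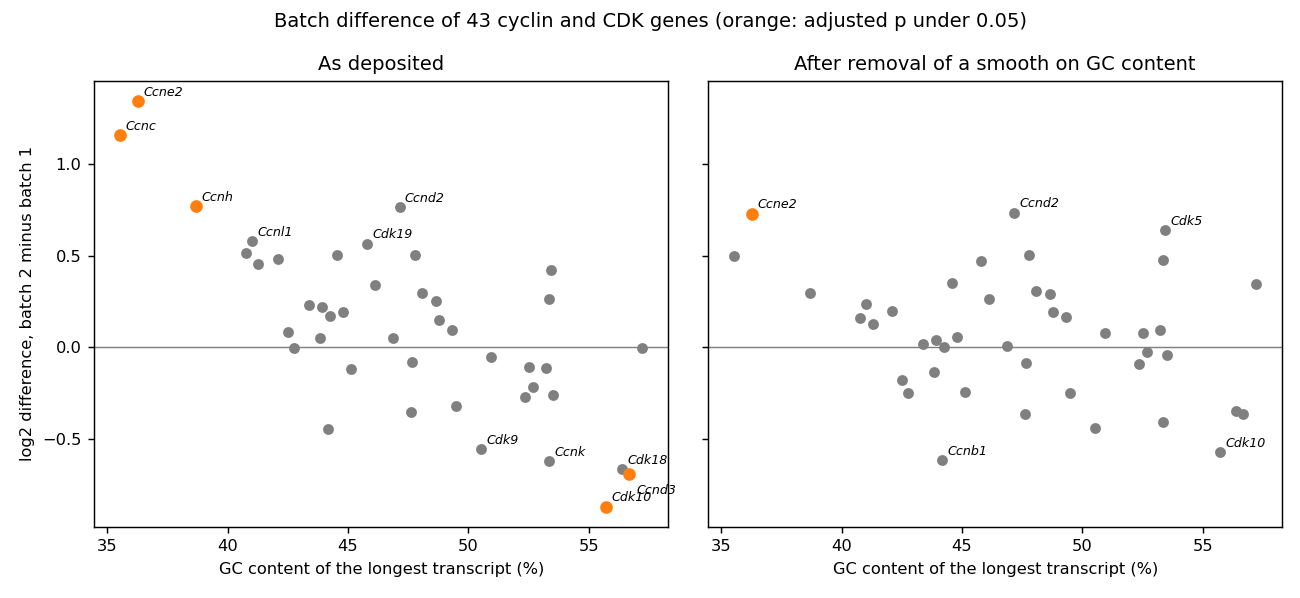
Batch difference (log2, batch 2 minus batch 1) of the 43 cyclin and CDK genes against the GC content of the longest transcript in %, as deposited (left) and after removal of a smooth on GC content per library (right), orange where the adjusted p was under 0.05. The 5 called genes lie at both ends of the GC range on the left, and Ccne2 alone is called on the right.

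Over all 7 libraries, differences of batch and genotype included, the ratio of the highest to the lowest library was under 1.5 for 11 members and over 2 for 19. The steadiest after *Cdk6* (1.29) were *Cdk2* (1.29), *Cdk13* and *Ccna1* (1.34 each), and the most variable were *Ccnc* (4.61), *Ccne2* (4.48), *Ccnj* (4.29) and *Ccnd2* (3.25). Counting can also blur single genes, since exons of 20 members overlap another gene and 7 members share more than 10% of their 35-base words with transcripts of other genes. These 7 were *Ccnb1*, *Ccnd1*, *Cdk10*, *Ccni*, *Cdk4*, *Ccne2* and *Ccna2*, while 12 members, among them *Ccnb2*, *Ccnb3*, *Cdk1* and *Cdk16*, shared none.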

How the data were processed

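RNA of total testis was sequenced as paired-end reads of 35 bases. Per the labels, alignment to GRCm38 used HISAT2 2.1.0 and counting featureCounts, followed by edgeR, whereas the study's methods name other tools, and the reads were not aligned again. The signal values of the table are CPM scaled per library by the authors, as deposited, and 100% of them came out as whole reads (tolerance 0.001 reads), with 2822168 to 8633399 reads per library. The study calls them biological replicates, and the labels do not state whether each was a separate animal. The p-values measure the spread between these libraries.

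The 19400 genes over 1 CPM in 3 or more libraries were fitted with limma (version 3.58.1, R 4.3.3) to log2(CPM + 0.5), with genotype, batch and a variance trend. P-values are two-sided, with Benjamini-Hochberg adjustment and a threshold of 0.05. The members and all lists were chosen with earlier results of these data known. The genes named are *Rlim*, *Ccna1*, *Ccnd2*, members under an unadjusted p of 0.05, the 5 members of smallest p in each direction, the 6 cyclins and 6 CDKs of highest level per kilobase, paralogs, members with 1 library far from its group, and listed genes under an unadjusted p of 0.05. Others were named after their values were seen. Alternatives used other pseudocounts, filters, scalings, variance models and batch handling, each library left out, and edgeR 4.0.16 and DESeq2 1.42.0 on the recovered reads. A removal of GC content (lowess, span 0.3) and each library left out of the batch and interaction tests were added after the data were seen. Exon lengths, GC content and 35-base words came from GENCODE M21 (all 43 members matched) and promoters from RefSeq, with Python 3.11.15.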

Additional observations from a re-analysis of the deposited data

Results flagged for a closer look

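In the 43 groups of 4 cKO/Y Sox2-Cre libraries, 6 members had 1 library farther from the others than Dixon's limit for 4 values. About 1 in 20 groups pass this limit if the values come from the same distribution, whereas each group here held both batches. The share of all genes that pass it was not counted, so the 6 are not read as an excess among the members. *Ccnk* was at 135.34 CPM in replicate 2, below the other cKO/Y Sox2-Cre libraries at 240.69 to 260.85 CPM and beside fl/Y replicates 1 and 2. *Ccny* (98.466 CPM), *Ccng1* (33.885 CPM) and *Ccnt1* (39.865 CPM) were each highest in the same replicate 2, with the other 3 libraries at up to 67.3, 17.3 and 28.9 CPM. *Cdk7* was lowest in replicate 3 at 12.282 CPM and *Cdk15* highest in replicate 3 at 2.5193 CPM. Replicate 2 was the library whose deviations from the gene means correlated most negatively with the GC content of genes (Spearman -0.60). Replicate 3 was the one with the most positive correlation (0.52). The part of GC content in these values was not tested.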

How the results depend on the processing

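Under 23 alternatives no cyclin or CDK passed an adjusted p of 0.05 (smallest 0.785), and 12 of 43 members kept the sign of their difference. *Ccnd2* stayed higher in cKO/Y Sox2-Cre in all 23 (log2 0.61 to 0.91), with an unadjusted p under 0.05 in 21 and p from 0.0021 to 0.0724. Members at an unadjusted p under 0.05 numbered 1 as reported and 2 without a variance trend (*Ccnb3* and *Ccnd2*). They numbered 0 without the batch, 0 in batch 2 alone and 1 to 2 with a library left out. *Ccnj* joined without fl/Y replicate 1, *Cdk11b* without cKO/Y Sox2-Cre replicate 1 and *Ccne2* without cKO/Y Sox2-Cre replicate 2. The shares of all genes at this p, or with a kept sign, were not counted in these fits. The counts are thus not read as particular to the members. The median difference of the members was -0.10 in batch 1 alone and -0.11 to 0.0049 with a library left out, above 0 without cKO/Y Sox2-Cre replicate 1. Genes past the adjusted p numbered 0 without a trend, without the batch, in batch 2 alone and with a replicate block, 28 in batch 1 alone (1 fl/Y library, assumed to vary like the others), 10 by the likelihood ratio test of edgeR, and 0 to 3 with a library left out. The adjusted p of *Rlim* was 0.815 without a trend, 0.921 without the batch, 0.872 in batch 2 alone, 0.154 without fl/Y replicate 1 and 0.634 without fl/Y replicate 3.

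With the replicate block in place of batch it was 0.307, and 1 member (*Ccnd2*, 0.79) had an unadjusted p under 0.05. Deviations from the genotype means, with the batch left in, correlated by 0.10, 0.07 and 0.39 between same-numbered libraries. Within batch 2, the difference of fl/Y replicates 1 and 2 correlated by -0.17 with that of cKO/Y Sox2-Cre replicates 1 and 2. Not every library correlated best with its own number, so the numbers were not taken as pairs.

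The sign of small differences changed. In batch 2 alone *Ccna1* was at -0.029 and *Ccne1* at 0.0034, and in batch 1 alone *Ccnk* was at -0.148 and *Ccnf* at -0.015. With a library left out, *Ccna1* ranged from -0.085 to 0.127, *Ccnk* from -0.0998 to 0.421, *Ccnd3* from -0.022 to 0.304 and *Ccne1* from -0.476 to 0.0034. Members that differed between batches numbered 5 as reported, 1 after removal of GC content, and 1 to 13 with a library left out. They were 2 without fl/Y replicate 1, 1 without fl/Y replicate 3, 13 without cKO/Y Sox2-Cre replicate 1, 1 without replicate 3 and 2 without replicate 4. The share of all genes called for batch with a library left out was not counted. The interaction of genotype and batch was called for 1 to 3 genes in all and 0 members with a library left out. The cause of these changes was not tested. Depth limits the members near 2 CPM (*Ccnj*, *Ccno*, *Cdk15*).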
